A study of Mus musculus with 22 samples.

Results

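Runx3, Prdm1, Zfp683, Bhlhe40, Ahr, Nfil3, Irf4, Irf8 and Batf, the transcription factors known for tissue residency and effector function in CD8+ T cells, were followed across all groups of the study. These 9 genes were taken by symbol from the 46297 rows of the expression table, each symbol matched 1 row, and all 9 passed the filter on low values, which left 14327 genes for testing. RNA sequencing had been run on 22 libraries of P14 CD8+ T cells, which carry a transgenic receptor for a viral peptide, from C57BL/6 mice aged 6 to 12 weeks. VHL-deficient and wild-type (WT) cells were compared in 5 settings: tumor on day 11 with 3 libraries of each genotype, and, with 2 libraries of each genotype, unsplit day 7 tumor, the sorted Trm (tissue-resident memory) fraction of day 7 tumor, the nonTrm fraction, and day 7 spleen. A biological replicate stood for 5 mice. The sources used here do not give the kind of tumor, the event from which days were counted, the way Vhl was removed or the antigens of the Trm sort.

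VHL recognises hydroxylated hypoxia-inducible factors (HIF) for a ubiquitin ligase that marks them for destruction, so cells without VHL keep HIF active in the presence of oxygen. Resident memory T cells stay in a tissue and depend on RUNX3, BLIMP1 (encoded by Prdm1) and HOBIT (encoded by Zfp683). BHLHE40 supports the metabolism and cytokine output of T cells, AHR is a ligand-activated receptor that helps resident T cells persist in skin and gut, and NFIL3 is a leucine zipper repressor. IRF4 pairs with BATF on composite DNA elements in activated T cells, and IRF8 is induced in CD8+ effector cells and is also a defining factor of dendritic cells and B cells.

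Reads of Vhl numbered 0 to 32 in VHL-deficient libraries and 60 to 280 in WT libraries. Libraries held 3375558 to 10211060 reads on genes. Levels are scaled counts, that is reads divided by a size factor for each library, and 1 read was worth 0.684 to 2.73 of them. A log2 fold change (log2FC) is a difference between groups on the log2(scaled count + 1) scale, which understates the change of low genes. Differences were tested with limma and Benjamini-Hochberg adjustment over the 14327 genes, and called where the adjusted p was under 0.05. The spread behind these p-values is that between libraries. The 10 markers of CD8 T cells summed to 28070 to 81530 scaled counts. In day 11 tumor they summed to 37530 to 42110 in VHL-deficient and 32780 to 35270 in WT libraries. In spleen they summed to 45280 to 54960 in VHL-deficient and 30920 to 35370 in WT libraries. The sums of the genotypes overlapped in the other settings, and none of the 10 was called between genotypes in any of the 5 settings. Of the VHL-deficient nonTrm cells, replicate 2 stood apart, with 45.7% of its reads on a ribosomal RNA gene against 26.9% to 42.3% in the other libraries, and with 34360 scaled counts of Malat1, a nuclear RNA, against 4839 to 15030. Mitochondrial genes took 2.89% to 5.58% of the reads of VHL-deficient tumor libraries and 7.56% to 12.2% of WT tumor libraries. WT day 11 tumor replicate 2 held 732 scaled counts of 5 neutrophil markers, against at most 9.74 in any other library.

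In RefSeq's table of promoters (build GRCm38.p6, from 250 bases before to 50 bases after a start site), 6 of the 9 genes had an entry, with 8 windows in all. The windows of Prdm1, Irf8 and Nfil3 are shown as those of 3 genes called between genotypes, 2 with matches to the motifs searched and 1 without. The windows shown lie at chr10:44458699-44458998 on the minus strand for Prdm1, at chr8:120736108-120736407 on the plus strand for the first of 2 Irf8 windows, and at chr13:52980990-52981289 on the minus strand for Nfil3. Capitals mark every match, on either strand, to ACGTG or GCGTG (both forms of the core of the hypoxia response element, the first also found inside the E-box and the second also the core of the element read by AHR with ARNT), CACGTG (the E-box read by BHLHE40) or TGANTCA (the AP-1 site). Runx3, also called between genotypes, had 2 windows with no match.
Prdm1: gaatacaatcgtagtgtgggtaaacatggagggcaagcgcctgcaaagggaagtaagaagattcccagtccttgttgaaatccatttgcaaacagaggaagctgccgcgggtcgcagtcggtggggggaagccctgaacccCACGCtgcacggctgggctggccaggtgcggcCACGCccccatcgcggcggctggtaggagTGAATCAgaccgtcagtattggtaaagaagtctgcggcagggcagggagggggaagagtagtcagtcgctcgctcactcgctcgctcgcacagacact
Irf8: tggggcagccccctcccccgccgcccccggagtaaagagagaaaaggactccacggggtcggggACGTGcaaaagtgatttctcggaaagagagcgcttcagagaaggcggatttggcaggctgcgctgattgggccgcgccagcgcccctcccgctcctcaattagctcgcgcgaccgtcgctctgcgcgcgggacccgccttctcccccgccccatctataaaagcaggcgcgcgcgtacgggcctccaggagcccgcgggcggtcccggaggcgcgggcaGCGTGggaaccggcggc
Nfil3: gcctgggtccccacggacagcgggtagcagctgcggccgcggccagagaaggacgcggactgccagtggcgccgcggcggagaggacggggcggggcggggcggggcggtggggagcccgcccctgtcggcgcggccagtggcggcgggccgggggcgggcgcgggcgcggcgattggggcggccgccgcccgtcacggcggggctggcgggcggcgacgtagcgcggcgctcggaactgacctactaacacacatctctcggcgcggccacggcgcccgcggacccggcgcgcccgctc
Prdm1 had 2 matches to GCGTG, first bases at -109 and -77 from the start site, and 1 to TGANTCA at -48. Irf8 had 1 match to ACGTG at -186 and 1 to GCGTG at 34. The Nfil3 window held none of these letters. Of the 8 windows, 1 held ACGTG, 3 held GCGTG, 0 held CACGTG and 1 held TGANTCA, while among 32851 promoter windows of this length the shares were 19.6% for ACGTG, 32.4% for GCGTG, 7.15% for CACGTG and 7.81% for TGANTCA. A match is a description of the letters, not a site of binding.

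Runx3 and Prdm1 lay higher in VHL-deficient cells than in WT cells in all 5 settings, with no overlap between the libraries of the genotypes in any of them. The share of all genes without overlap was not counted. A lack of overlap, here and below, is therefore only a description of the libraries. Runx3 encodes the RUNX factor that silences Cd4 and opens cytotoxic and residency genes (mm10 chromosome 4, 135120652 to 135177990, plus strand in GENCODE M21). Runx3 had 675, 782 and 566.5 scaled counts in VHL-deficient day 11 tumor, against 332, 463 and 359 in WT day 11 tumor. In unsplit day 7 tumor it had 710.1 and 630.3 in VHL-deficient cells, against 473 and 407 in WT cells. The lowest VHL-deficient library was above the highest WT library both times. VHL-deficient Trm cells had 687 and 777 scaled counts of Runx3, against 469 and 327 in WT Trm cells. VHL-deficient nonTrm cells had 744 and 810.3, against 533 and 280.2 in WT nonTrm cells. Its highest levels were in spleen, 1471 and 1112 in VHL-deficient cells against 657 and 573 in WT cells. Runx3 was called higher in day 11 tumor (log2FC 0.81, SE 0.24, adjusted p = 0.0415) and in spleen (1.06, SE 0.29, adjusted p = 0.0478). It was not called in Trm cells (0.90, adjusted p = 0.0520), nonTrm cells (1.00, adjusted p = 0.0722) or unsplit day 7 tumor (0.61, adjusted p = 0.364). Their mean over the 5 settings was tested in the same limma fit, a test added after seeing the data. The mean log2FC of Runx3 was 0.88 (SE 0.12, adjusted p = 2.39e-05, higher in 5 of 5 settings), and it was called in all 33 other settings of the processing. For this mean, fitting only the groups compared takes in all 10 groups, so that setting repeats the main fit. The single calls of Runx3 were near the threshold. The spleen call was lost in 24 of 33 other settings, with an adjusted p up to 0.426 without VHL-deficient spleen replicate 1, 0.275 without WT spleen replicate 2, 0.141 without WT spleen replicate 1, 0.0740 without VHL-deficient spleen replicate 2, and 0.0526 to 0.0666 without 1 of 12 libraries of other groups. The day 11 call was lost without VHL-deficient day 11 replicate 1, 2 or 3 (adjusted p = 0.121, 0.182 and 0.0511), without WT day 11 replicate 1 or 3 (0.156 and 0.148) and without either VHL-deficient unsplit day 7 library (0.0554 each).

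Prdm1 encodes BLIMP1, a zinc finger repressor that drives effector and resident cells away from circulating memory (chromosome 10, 44437177 to 44528501, minus strand). Prdm1 had 329, 365 and 251 scaled counts in VHL-deficient day 11 tumor, against 93.0, 155 and 61.4 in WT day 11 tumor. VHL-deficient Trm cells had 349 and 455, against 177 and 111 in WT Trm cells. All VHL-deficient libraries of these settings exceeded all WT libraries. It stood at 230.0 and 359 in VHL-deficient unsplit day 7 tumor, against 124 and 132 in WT cells. In nonTrm cells it stood at 239 and 355 in VHL-deficient cells, against 96.3 and 142 in WT cells, and in spleen at 125 and 106 in VHL-deficient cells, against 32.0 and 58.7 in WT cells. Spleen was the setting with the least Prdm1 in both genotypes. Prdm1 rose in day 11 tumor (log2FC 1.68, SE 0.33, limma adjusted p = 0.00296), a call kept in all 33 other settings, and in Trm cells (1.50, SE 0.40, adjusted p = 0.0219), where it was lost without VHL-deficient Trm replicate 2 (adjusted p = 0.231) and without WT Trm replicate 2 (0.129). In the other settings the log2FC was 1.31 in nonTrm cells (adjusted p = 0.0947), 1.39 in spleen (0.0670) and 1.16 in unsplit day 7 tumor (0.177). Over the 5 settings the mean log2FC was 1.41 (SE 0.17, adjusted p = 4.22e-06). None of the 3 interaction terms, for subset, tissue or day, was called for Prdm1 or Runx3. The adjusted p-values of these terms ran from 0.694 to 1 for the pair.

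Zfp683 encodes HOBIT, the relative of BLIMP1 that acts with it in resident lymphocytes of mice (chromosome 4, 134053838 to 134058996, plus strand). Zfp683 was sparse, with 4 to 80 reads in a library. It had 12.4 to 14.7 scaled counts in VHL-deficient Trm cells, against 10.2 to 25.7 in WT Trm cells. In day 11 tumor it had 15.2 to 28.4 in VHL-deficient cells, against 7.78 to 29.3 in WT cells, and the genotypes overlapped in all 5 settings. Its highest levels were in spleen, 87.2 and 65.6 in VHL-deficient cells against 64.0 and 73.3 in WT cells. Its log2FC between genotypes ran from -0.81 in nonTrm cells to 0.39 in day 11 tumor with no call (limma adjusted p from 0.584 to 0.976), and the mean over the 5 settings was -0.09 (SE 0.26, adjusted p = 0.829). Zfp683 was also not called between Trm and nonTrm cells, at -0.45 in VHL-deficient cells (adjusted p = 0.838) and -1.01 in WT cells (0.581).

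**Figure D1:**
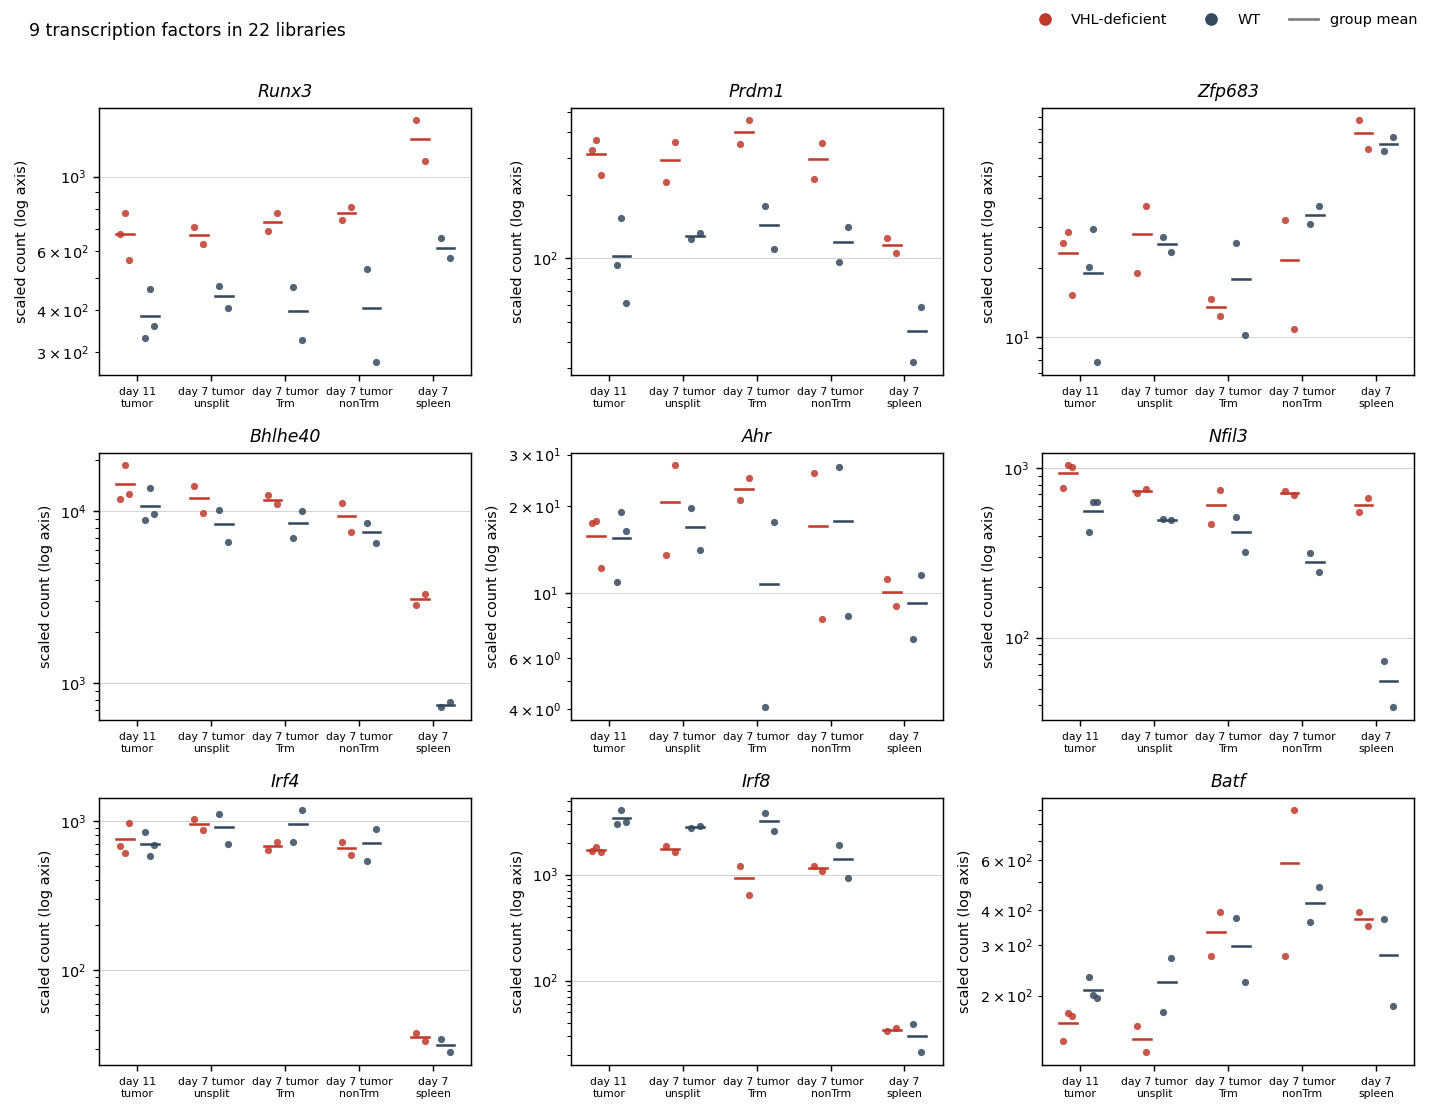
Scaled counts (log axis) of the 9 transcription factors in every library, by setting, with VHL-deficient libraries left of WT libraries in each setting; points are libraries and bars are group means. Runx3 and Prdm1 show a gap between the genotypes in all 5 settings, Nfil3 and Bhlhe40 show their widest gap in spleen, and Irf4 and Irf8 lie far lower in spleen than in tumor.

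Nfil3 and Bhlhe40 had their largest log2FC between genotypes in spleen. Nfil3 encodes a basic leucine zipper repressor that takes part in the circadian clock and in the making of innate lymphocytes (chromosome 13, 52967209 to 52981073, minus strand). Nfil3 had 554 and 664.5 scaled counts in VHL-deficient spleen cells, against 72.4 and 38.8 in WT spleen cells, and the log2FC was 3.49 (SE 0.32, limma adjusted p = 4.02e-07). In nonTrm cells it had 729 and 693 in VHL-deficient cells, against 315 and 243 in WT cells (1.36, SE 0.32, adjusted p = 0.0251). The genotypes did not overlap in either setting. In day 11 tumor Nfil3 had 769, 1041 and 1013 in VHL-deficient cells, against 421, 631 and 635 in WT cells, and the log2FC of 0.75 had an adjusted p of 0.0878 (0.00821 when only the groups compared were fitted). Unsplit day 7 tumor had 709 and 756 in VHL-deficient cells, against 498 and 491.5 in WT cells (0.56, adjusted p = 0.449). Trm cells were the setting in which the genotypes overlapped, with 468 and 740 in VHL-deficient cells against 516 and 318.5 in WT cells (0.54, adjusted p = 0.299). The genotype difference in tumor was smaller than that in spleen: the interaction of genotype and tissue was -2.93 (SE 0.45, limma adjusted p = 0.0159). Of all genes, 0.0698% were called for that interaction, and Nfil3 was the 1 of the 9 factors among them. The interaction missed the threshold without WT spleen replicate 2 (-2.49, adjusted p = 0.0771), without VHL-deficient unsplit replicate 1 or 2 (0.119 and 0.0837) and without WT unsplit replicate 2 (0.0760). The spleen difference of Nfil3 was called in all 33 other settings, with an adjusted p of at most 4.94e-05, while the nonTrm call was lost in 7, with an adjusted p of 0.194 without WT nonTrm replicate 2, 0.0579 without WT nonTrm replicate 1, 0.0704 without VHL-deficient nonTrm replicate 2 and 0.680 when only the groups compared were fitted.

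Bhlhe40 encodes a basic helix-loop-helix repressor of clock genes that resident and tumor-infiltrating T cells use to sustain mitochondrial function (chromosome 6, 108660629 to 108666925, plus strand). Bhlhe40 had 2841 and 3326 scaled counts in VHL-deficient spleen cells, against 725 and 780.5 in WT spleen cells, and rose by a log2FC of 2.03 (SE 0.33, limma adjusted p = 6.51e-04), a call kept in all 33 other settings. In day 11 tumor it had 11780, 18540 and 12690 in VHL-deficient cells, against 8962, 13730 and 9677 in WT cells. There the libraries of the genotypes overlapped, as they did in unsplit day 7 tumor and in nonTrm cells, with 7611 to 14050 in VHL-deficient cells and 6557 to 10200 in WT cells. Trm cells had 12400 and 10990 in VHL-deficient cells, against 7001 and 10010 in WT cells, with no overlap. The log2FC in the 4 tumor settings ran from 0.30 to 0.51, with limma adjusted p-values of 0.374 to 0.741. Its interaction of genotype and tissue was -1.52 (unadjusted p = 0.00395, adjusted p = 0.311). Over the 5 settings the mean log2FC was 1.34 for Nfil3 (SE 0.14, adjusted p = 3.69e-07) and 0.75 for Bhlhe40 (SE 0.14, adjusted p = 5.42e-04), both above 0 in 5 of 5 settings. Both means include the large spleen values (3.49 for Nfil3 and 2.03 for Bhlhe40). That of Bhlhe40 is above its log2FC in each of the 4 tumor settings. Reads of Bhlhe40 cannot be told apart from those of the antisense gene 0610040F04Rik over a shared exon if strand was not used, and that gene averaged 4.72 scaled counts. Ahr likewise shares exon bases with the opposite-strand gene Gm48236.

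Ahr encodes the aryl hydrocarbon receptor (chromosome 12, 35497974 to 35535038, minus strand). Ahr was the factor with the fewest reads for its length, with 3 to 38 reads in a library. Ahr had 20.9 and 24.9 scaled counts in VHL-deficient Trm cells, against 4.05 and 17.5 in WT Trm cells, with no overlap (log2FC 1.30, SE 0.69, limma adjusted p = 0.242). In the other settings it lay between 8.18 and 27.6 in VHL-deficient cells and between 6.96 and 27.1 in WT cells, and the groups overlapped. The mean log2FC over the 5 settings was 0.33 (SE 0.30, adjusted p = 0.441). Of 10 listed genes of the AHR pathway 6 were tested (values are group means of scaled counts here and for the other listed genes). Tiparp, a target that ribosylates and restrains AHR and is also known to respond to HIF, rose in Trm cells (776 in VHL-deficient against 139 in WT cells, log2FC 2.48, adjusted p = 1.54e-04), in day 11 tumor (601 in VHL-deficient against 206.5 in WT cells, log2FC 1.52, adjusted p = 0.00225) and in unsplit day 7 tumor (419 in VHL-deficient against 146 in WT cells, log2FC 1.53, adjusted p = 0.0239). In Trm cells the chaperone parts of the AHR complex, Hsp90ab1 (log2FC -1.25, adjusted p = 0.0151) and Ptges3 (-1.17, adjusted p = 0.0148), fell. No other member of the AHR list was called between genotypes in the 5 settings.

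Irf8 was lower in VHL-deficient cells than in WT cells in all 4 tumor settings and was called in 2 of them, the only factor of the 9 called lower between genotypes. Irf8 encodes an interferon regulatory factor (chromosome 8, 120736358 to 120756694, plus strand). Irf8 had 1669, 1825 and 1649 scaled counts in VHL-deficient day 11 tumor, against 2996, 4048 and 3107 in WT day 11 tumor (log2FC -0.97, SE 0.28, limma adjusted p = 0.0392). In Trm cells it had 1202 and 637 in VHL-deficient cells, against 3811 and 2561 in WT cells (-1.84, SE 0.34, adjusted p = 0.00188). The genotypes did not overlap in these settings, nor in unsplit day 7 tumor, where Irf8 had 1879 and 1618 in VHL-deficient cells against 2780 and 2853 in WT cells (-0.69, adjusted p = 0.379). They overlapped in nonTrm cells, with 1195 and 1091 in VHL-deficient cells against 1899 and 930.0 in WT cells (-0.22, adjusted p = 0.844), and in spleen, with 33.5 and 35.3 in VHL-deficient cells against 39.0 and 21.0 in WT cells (0.26, adjusted p = 0.836). The mean over the 5 settings was -0.69 (SE 0.15, adjusted p = 0.00145, lower in 4 of 5 settings). The interaction of genotype with Trm against nonTrm had a log2FC of -1.62 (unadjusted p = 0.00308, adjusted p = 0.464). The Trm call missed the threshold without VHL-deficient Trm replicate 2 (log2FC -1.38, adjusted p = 0.0795). The day 11 call missed it without any single library of the 6 compared (adjusted p from 0.0758 to 0.140) and without either VHL-deficient unsplit day 7 library (0.0520 and 0.0521).

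Since dendritic cells and B cells also express Irf8, their markers were set beside it. In these bulk samples fewer cells of a type and less RNA per cell cannot be told apart. The 10 dendritic cell markers summed to 1858 to 4488 scaled counts in VHL-deficient tumor libraries and 256 to 926 in WT tumor libraries. In VHL-deficient libraries most of that sum came from the class II gene H2-Ab1, which averaged 1574 in VHL-deficient day 11 tumor against 126 in WT cells (log2FC 3.79, limma adjusted p = 2.10e-05). The class II genes H2-Aa and H2-Eb1 were at the other end: H2-Aa was lower in day 11 tumor (5.62 in VHL-deficient against 79.6 in WT cells, -3.46, adjusted p = 0.0195), and H2-Eb1 in day 11 tumor (-2.75, adjusted p = 0.0422) and in Trm cells (-3.25, adjusted p = 0.0391). H2-Aa in Trm cells had log2FC -3.02 (adjusted p = 0.0761). Of the 7 dendritic cell markers tested, 2 were higher and 2 lower in day 11 tumor, and 2 higher and 1 lower in Trm cells. In unsplit day 7 tumor 2 were higher and 0 lower. The markers called higher were Xcr1 and H2-Ab1 each time. Xcr1 was found in every library, at 46.1 to 505 scaled counts. Zbtb46 and Itgax were not called between genotypes in any of the 5 settings. Clec9a was at 0 in 18, Siglech in 17 and Flt3 in 13 of the 22 libraries and none of the 3 exceeded 13.1 scaled counts. The 6 B cell markers summed to 76.1 to 297 in VHL-deficient tumor libraries and 311 to 1018 in WT tumor libraries, and to 570.2 to 1222 in spleen, where Irf8 was at its lowest. Of the 2 tested, Ighm was lower in day 11 tumor (74.8 in VHL-deficient against 427 in WT cells, log2FC -2.57, adjusted p = 1.71e-04) and Cd79b had 34.0 in VHL-deficient against 19.7 in WT cells (0.77, adjusted p = 0.245). For the mean over the 5 settings Cd79b was called higher (0.89, adjusted p = 0.00257) and Ighm lower (-2.13, adjusted p = 8.19e-08). Pax5 was at 0 in 18 and Ms4a1 in 15 libraries. The 9 markers of macrophages and monocytes summed to 13.9 to 143 over all libraries, with Fcgr1 at 0 in 19 and Adgre1 in 17. In day 11 tumor they summed to 52.25 to 70.7 in VHL-deficient and 91.2 to 143 in WT libraries. In unsplit day 7 tumor they summed to 24.35 to 43.3 in VHL-deficient and 51.3 to 75.3 in WT libraries. The genotypes overlapped in Trm and nonTrm cells, and in spleen the VHL-deficient sums were the higher. None of the 3 tested was called between genotypes. The 6 NK cell markers summed to 68.3 to 441 in VHL-deficient tumor libraries and 174 to 919.5 in WT tumor libraries, with Ncr1 at 0 in 15. WT day 11 tumor replicate 2, the library with the neutrophil markers, had the highest Irf8 of the 22 libraries, 4048 scaled counts. It also had the highest sums of the macrophage (143) and NK cell (919.5) lists. Without it the log2FC of Irf8 in day 11 tumor was -0.83 (limma adjusted p = 0.140). The part of such cells in the Irf8 result was not tested. With scaling to the reads outside ribosomal RNA and mitochondrial genes, whose share moved with genotype in tumor, the log2FC of Irf8 was -1.75 in Trm cells and -0.97 in day 11 tumor, both called.

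**Figure D2:**
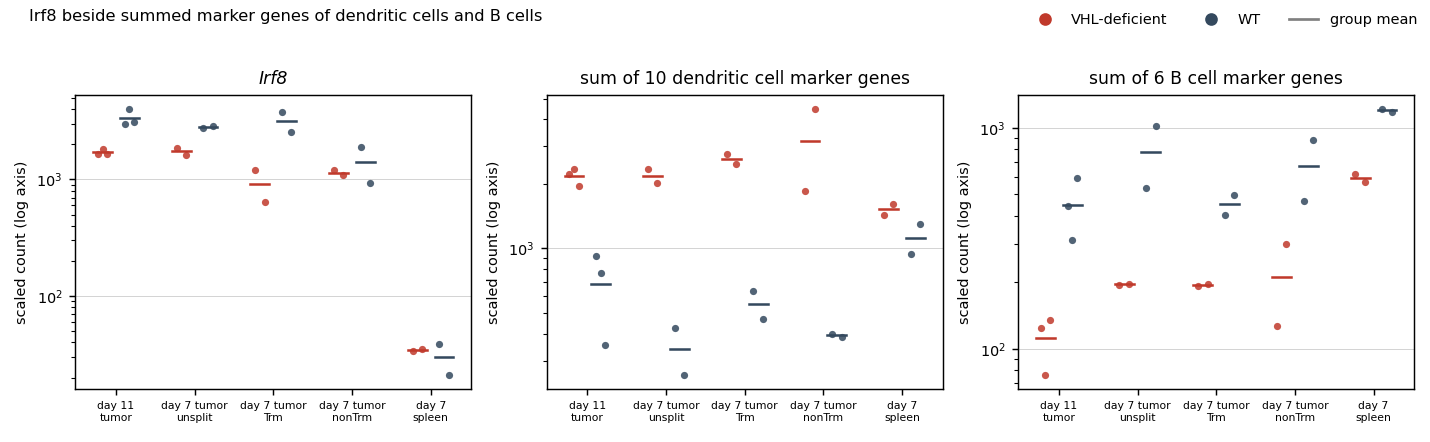
Scaled counts (log axis) of Irf8 and summed scaled counts of 10 dendritic cell and 6 B cell marker genes in every library, by setting, VHL-deficient left of WT; bars are group means. The summed counts of the B cell list are lower and those of the dendritic cell list, which H2-Ab1 leads, are higher in VHL-deficient tumor libraries, and in spleen the B cell sum is high where Irf8 is near its lowest.

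Neither Irf4 nor Batf was called between genotypes in any of the 5 settings. Irf4 encodes the factor induced by receptor signals that works with BATF and AP-1 proteins (chromosome 13, 30749226 to 30766976, plus strand). Irf4 had 676, 609 and 974 scaled counts in VHL-deficient day 11 tumor, against 837, 583 and 693 in WT day 11 tumor. Trm cells had 637.5 and 719 in VHL-deficient cells, against 727 and 1179 in WT cells, the 1 setting of 5 without overlap (log2FC -0.45, limma adjusted p = 0.382). Over the 5 settings its mean log2FC was -0.03 (SE 0.14, adjusted p = 0.878). Batf encodes a basic leucine zipper protein that pairs with JUN proteins (chromosome 12, 85686669 to 85709087, plus strand). Batf had 138, 173 and 169 in VHL-deficient day 11 tumor, against 232, 201.3 and 195 in WT day 11 tumor (-0.39, adjusted p = 0.547). Unsplit day 7 tumor had 156 and 126 in VHL-deficient cells, against 174.5 and 270.4 in WT cells (-0.63, adjusted p = 0.527). The VHL-deficient libraries were below the WT libraries in both settings, and the genotypes overlapped in the other 3. Replicate 2 of the VHL-deficient nonTrm cells, the library that stood apart, had the highest Batf of all 22, 898 scaled counts, against 276 in replicate 1. The mean of Batf over the 5 settings was -0.02 (SE 0.18, adjusted p = 0.962). Among 7 tested AP-1 partners, 1 rose in day 11 tumor (Jun, log2FC 0.99, adjusted p = 0.0460), 1 in Trm cells (Fosl2, 1.22, adjusted p = 0.0151), and Jund rose in nonTrm cells (2.15, adjusted p = 0.00407) and in spleen (1.85, adjusted p = 0.0104). For the mean over the 5 settings 4 of the 7 were higher (Jun, Junb, Jund and Fosl2) and 0 lower, with 27.2% of all genes called.

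Against all genes, the 9 factors were called as follows. In day 11 tumor 3 of 9 were called (2 higher, 1 lower), with 6.87% of all genes called. In Trm cells 2 of 9 were called (1 higher, 1 lower), with 10.1% of all genes. In spleen 3 of 9 were called, all higher, with 3.18% of all genes. In nonTrm cells 1 of 9 was called, with 2.32% of all genes. In unsplit day 7 tumor limma called 0 of 9, with 1.91% of all genes, and voom on the recovered reads also called 0. At an unadjusted limma p under 0.05 that setting had 1952 of the 14327 genes tested, and 2 factors, Prdm1 and Runx3. The median log2FC of the 9 factors was 0.39 in day 11 tumor, 0.21 in unsplit day 7 tumor, 0.48 in Trm cells, 0.25 in nonTrm cells and 0.50 in spleen, beside medians of 0.02 to 0.09 over all genes tested. For the mean over the 5 settings 5 of 9 were called (4 higher, 1 lower), with 27.2% of all genes. By that test 3 of the 10 CD8 T cell markers were higher (Cd3e, Cd3g and Thy1) and 0 lower. Of 5 tested mitochondrial messages, 4 were lower in VHL-deficient than in WT cells in day 11 tumor and 5 in Trm cells. The part of RNA quality in the results was not tested.

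**Figure D3:**
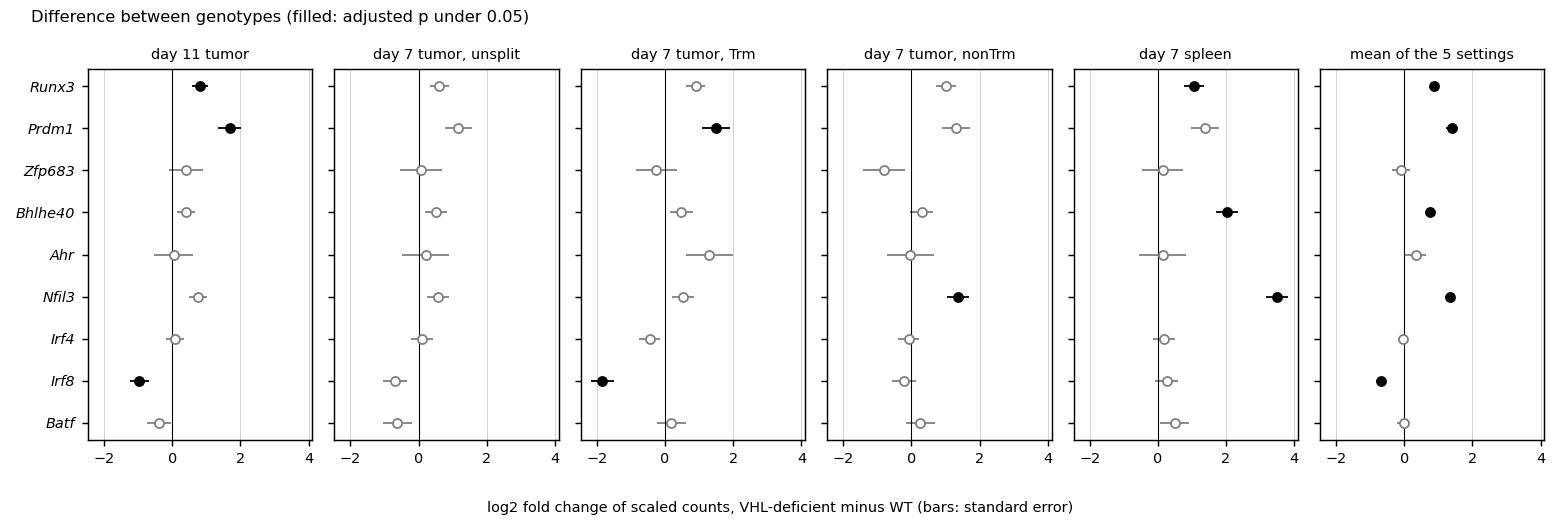
Log2 fold change of scaled counts, VHL-deficient minus WT, for the 9 factors in each setting and as the mean of the 5 settings; bars are standard errors and filled points have an adjusted p under 0.05. Runx3, Prdm1, Nfil3 and Bhlhe40 lie above 0 in every panel, and Irf8 lies below 0 in all panels but spleen.

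Genes known as targets of these factors were followed as 2 lists, chosen with earlier results of these data known. Of 13 residency and effector targets, all tested, 5 rose and 0 fell in day 11 tumor, 4 rose and 0 fell in unsplit day 7 tumor, 4 rose and 1 fell in Trm cells, 1 rose in nonTrm cells and 1 rose in spleen. Itgae, the CD103 integrin chain, had 129 scaled counts in VHL-deficient day 11 tumor against 9.74 in WT cells (log2FC 3.63, adjusted p = 3.06e-04), and 1068 in VHL-deficient Trm cells against 26.1 in WT Trm cells (5.04, adjusted p = 1.02e-04). The integrin chain Itga1 rose in Trm cells (523 in VHL-deficient against 96.7 in WT cells, log2FC 2.49, adjusted p = 0.00175) and in unsplit day 7 tumor (312 in VHL-deficient against 76.0 in WT cells, 2.11, adjusted p = 0.0147). The chemokine Xcl1 fell in Trm cells (228 in VHL-deficient against 1390 in WT cells, log2FC -2.86, adjusted p = 0.00793), and the granzyme Gzmb rose in spleen (5654 in VHL-deficient against 1482 in WT cells, 1.95, adjusted p = 0.0467). The median log2FC of the list ran from 0.61 in day 11 tumor to 1.01 in spleen, and for the mean over the 5 settings 9 of 13 were higher and 0 lower. Of 10 genes listed as low in resident cells, 9 were tested. The list also holds Cd4, which RUNX3 silences, so it does not mark residency alone. Between genotypes 1 rose in day 11 tumor (Il2), 1 rose in unsplit day 7 tumor (Cd4), 0 were called in Trm and nonTrm cells and 1 fell in spleen (Ccr7, log2FC -2.56, adjusted p = 0.00559). For the mean over the 5 settings 1 of the 9 was higher and 3 lower, with 27.2% of all genes called.

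Clock genes other than Bhlhe40 and Nfil3 were mostly not called. Of 14 listed, 12 were tested, and Ciart, a circadian repressor, was the 1 called between genotypes in each of the 5 settings. Ciart had 265 scaled counts in VHL-deficient day 11 tumor against 30.3 in WT cells (log2FC 3.13, limma adjusted p = 1.90e-06), and 111 in VHL-deficient spleen cells against 36.9 in WT spleen cells (1.59, adjusted p = 0.0240). Of 3 RUNX partners, Runx1 rose in Trm cells (213 in VHL-deficient against 110.3 in WT cells, log2FC 0.92, adjusted p = 0.0410) and none was called in the other 4 settings. Of 7 other IRF genes, Irf5 rose in spleen (197 in VHL-deficient against 68.1 in WT cells, log2FC 1.58, adjusted p = 0.0146) and none was called in the other 4 settings. For the mean over the 5 settings 27.2% of all genes were called. By that test 2 RUNX partners were higher (Runx1 and Runx2) and 0 lower, and 3 clock genes were higher (Tef, Per2 and Ciart) and 0 lower. Of the IRF genes 1 was higher and 2 lower, the 3 being Irf1, Irf5 and Irf9.

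The comparison of unsplit day 7 tumor with day 7 spleen gave the widest differences among the 9 factors. Irf8 had 1879 and 1618 scaled counts in VHL-deficient tumor cells against 33.5 and 35.3 in VHL-deficient spleen cells (log2FC 5.62, SE 0.34, limma adjusted p = 8.84e-10), and 2780 and 2853 in WT tumor cells against 39.0 and 21.0 in WT spleen cells (6.57, SE 0.34, adjusted p = 3.74e-11). Irf4 had 1023 and 876 in VHL-deficient tumor cells against 38.0 and 33.6 in VHL-deficient spleen cells (4.69, SE 0.31, adjusted p = 2.16e-09). In WT cells it had 1116 and 701 in tumor against 34.8 and 28.3 in spleen (4.77, SE 0.31, adjusted p = 1.54e-09). All tumor libraries of both genes were above all spleen libraries, by a factor of more than 10. Bhlhe40 rose by 1.93 in VHL-deficient cells (14050 and 9736 in tumor against 2841 and 3326 in spleen, adjusted p = 4.10e-04) and by 3.45 in WT cells (10200 and 6594 in tumor against 725 and 780.5 in spleen, adjusted p = 3.36e-07). Nfil3 rose in WT cells, 498 and 491.5 in tumor against 72.4 and 38.8 in spleen (3.20, SE 0.32, adjusted p = 5.64e-07). In VHL-deficient cells Nfil3 had 709 and 756 in tumor against 554 and 664.5 in spleen (0.27, SE 0.32, adjusted p = 0.627). These 6 calls of Irf4, Irf8 and Bhlhe40, and that of Nfil3 in WT cells, held in all 33 other settings.

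Prdm1 rose in tumor in both genotypes, with 230.0 and 359 scaled counts in VHL-deficient tumor cells against 125 and 106 in spleen cells (log2FC 1.31, limma adjusted p = 0.0306), and 124 and 132 in WT tumor cells against 32.0 and 58.7 in spleen cells (1.54, adjusted p = 0.00986). Runx3 fell in VHL-deficient cells, 710.1 and 630.3 in tumor against 1471 and 1112 in spleen (-0.93, adjusted p = 0.0319), and had 473 and 407 in WT tumor cells against 657 and 573 in WT spleen cells (-0.48, adjusted p = 0.247). Batf fell in VHL-deficient cells, 156 and 126 in tumor against 393 and 351 in spleen (-1.40, adjusted p = 0.0290), while WT cells had 174.5 and 270.4 in tumor against 373 and 184 in spleen (-0.27, adjusted p = 0.693). That Runx3 and Batf passed the threshold in 1 genotype does not make the genotypes differ, and their interactions of genotype and tissue were not called (adjusted p = 0.694 and 0.541). Zfp683 had log2FC -1.48 in VHL-deficient cells (adjusted p = 0.109, and 0.0325 when only the groups compared were fitted) and -1.40 in WT cells (0.106), and Ahr had 0.88 (0.431) and 0.82 (0.424). Prdm1 in VHL-deficient cells was lost without VHL-deficient spleen replicate 1 or 2 (adjusted p = 0.0982 and 0.140) and without VHL-deficient unsplit replicate 1 or 2 (0.0562 and 0.237), and Batf likewise (0.158, 0.0830, 0.0954 and 0.161). Runx3 was lost without VHL-deficient spleen replicate 1 (0.258) and without VHL-deficient unsplit replicate 1 or 2 (0.110 and 0.165), and Prdm1 in WT cells without WT spleen replicate 1 (0.129) and WT unsplit replicate 2 (0.0649).

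In this comparison 6 of the 9 factors were called in VHL-deficient cells (4 higher, 2 lower), with 15.4% of all genes called, and 5 in WT cells, all higher, with 21.5% of all genes. The median log2FC of the 9 was 0.88 in VHL-deficient cells and 1.54 in WT cells, beside 0.06 and 0.08 over all genes. The scaling bears on the smaller of these changes. Of all called genes 64.6% were higher in VHL-deficient tumor and 61.3% in WT tumor, against 47.2% and 37.0% with scaling to reads outside ribosomal RNA and mitochondrial genes. That scaling moved the median log2FC of all genes by -0.20 in VHL-deficient cells and -0.39 in WT cells, and TMM scaling moved it by -0.11 in WT cells. With scaling to reads outside ribosomal RNA and mitochondrial genes, Runx3 (-0.87, adjusted p = 0.0365) and Zfp683 (-1.79, adjusted p = 0.0450) were called lower in WT tumor. With that same scaling Prdm1 in VHL-deficient cells was not called (1.11, adjusted p = 0.0653).

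**Figure D4:**
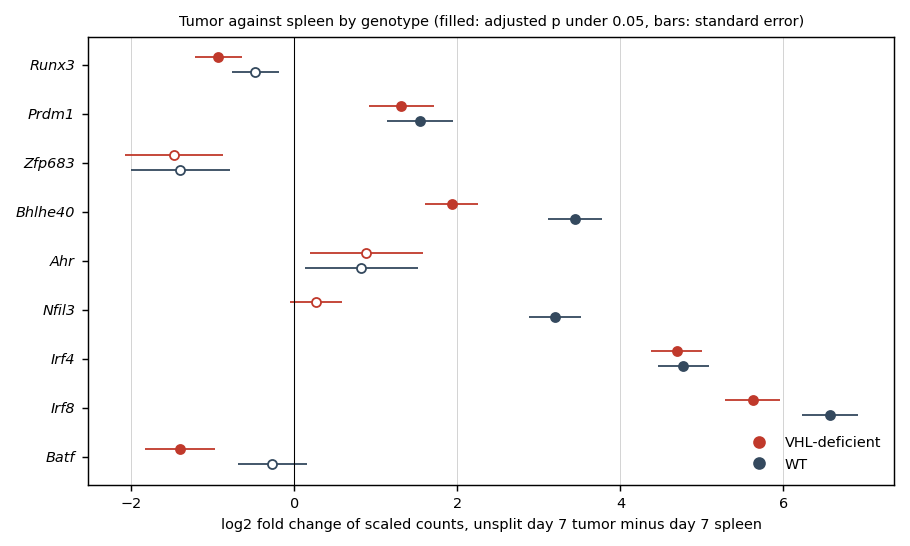
Log2 fold change of scaled counts, unsplit day 7 tumor minus day 7 spleen, for the 9 factors in VHL-deficient cells (upper point) and WT cells (lower point); bars are standard errors and filled points have an adjusted p under 0.05. Irf4 and Irf8 lie between 4.69 and 6.57 in both genotypes, and Nfil3 lies at 3.20 in WT cells and 0.27 in VHL-deficient cells.

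The listed partners and targets moved in the same comparison. Of 7 tested AP-1 partners, 6 rose in VHL-deficient tumor and 5 in WT tumor, with 0 lower in either. They included Fosl2 (1284 in VHL-deficient tumor against 178.5 in spleen, log2FC 2.84, adjusted p = 1.86e-06) and Junb (20700 in VHL-deficient tumor against 3143 in spleen, 2.72, adjusted p = 9.34e-06). Of the 13 residency and effector targets 7 rose and 1 fell in VHL-deficient tumor, and 7 rose and 2 fell in WT tumor. The 1 that fell in VHL-deficient tumor was Cd8b1, a chain of the CD8 coreceptor (log2FC -1.65, adjusted p = 0.0133). The 2 that fell in WT tumor were Itgae (3.44 in tumor against 142.5 in spleen, log2FC -5.01, adjusted p = 2.60e-05) and Itga1 (76.0 in tumor against 343.5 in spleen, -2.25, adjusted p = 0.00146), both integrin chains of resident cells, while Xcl1 rose in both genotypes (log2FC 7.15 in VHL-deficient cells and 7.25 in WT cells). Cd8b1 and Itga1 are named here after their values were seen. Of the 9 tested genes listed as low in resident cells, 5 fell and 2 rose in VHL-deficient tumor and 5 fell and 1 rose in WT tumor. S1pr1, the receptor for exit from tissue, fell to 48.9 scaled counts in VHL-deficient tumor against 1603 in spleen (log2FC -5.14, adjusted p = 5.55e-07), and Ccr7, the homing receptor for lymph nodes, rose (4394 in VHL-deficient tumor against 103 in spleen, 5.31, adjusted p = 5.30e-07). Of 12 clock genes 2 rose in each genotype, among them Per1 in both (1.58, adjusted p = 8.65e-04 in VHL-deficient cells and 2.21, adjusted p = 2.06e-05 in WT cells). Of the 7 other IRF genes Irf3 fell in both (-1.24 and -1.27), and Irf1 (1.48, adjusted p = 0.00492) and Irf5 (1.12, adjusted p = 0.0301) rose in WT tumor.

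Between Trm and nonTrm cells of the same genotype no factor was called in limma. The counts were 0 of 9 in VHL-deficient cells, with 0.00698% of all genes called, and 0 of 9 in WT cells, with 0.3% of all genes. At an unadjusted p under 0.05 there were 1257 genes and 0 factors in VHL-deficient cells, and 1629 genes and 1 factor, Irf8, in WT cells. Irf8 had 3811 and 2561 scaled counts in WT Trm cells against 1899 and 930.0 in WT nonTrm cells (log2FC 1.23, unadjusted p = 0.00167, adjusted p = 0.122), and the adjusted p was 0.0367 without WT nonTrm replicate 1. VHL-deficient cells had 1202 and 637 in Trm against 1195 and 1091 in nonTrm (-0.38, adjusted p = 0.748). Batf in VHL-deficient cells had 275 and 394 in Trm against 276 and 898 in nonTrm (-0.59, adjusted p = 0.684), and without either nonTrm library its log2FC was -1.44 (adjusted p = 0.0173, without replicate 1) or 0.26 (adjusted p = 1.00, without replicate 2). Voom on the recovered reads called 0 of 9 in both genotypes. Itgae was called, though the sources used here do not say whether CD103 served in the sort, with 1068 in VHL-deficient Trm cells against 17.1 in VHL-deficient nonTrm cells (5.49, adjusted p = 0.00135). In WT cells Itgae averaged 26.1 in Trm cells and was at 0 in both nonTrm libraries, and the interferon factor Irf7 fell (355 in WT Trm against 1318 in WT nonTrm cells, -1.98, adjusted p = 0.0315). Of called genes in WT cells 67.4% were higher in Trm cells, against 53.1% with TMM scaling and 30.8% with scaling to reads outside ribosomal RNA and mitochondrial genes, which moved the median of all genes by -0.19.

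Day 11 tumor was set against unsplit day 7 tumor within each genotype. The sample titles end in a letter and a number, read here as a position on a plate, though no label says so. This number differs between the 2 days, so day and plate column, if it is one, cannot be told apart. No factor was called by limma, with 0% of all genes called in VHL-deficient cells and 0% in WT cells; at an unadjusted p under 0.05 there were 633 and 484 genes and 0 of the 9 factors. The log2FC of the 9 factors ran from -0.36 (Irf4) to 0.35 (Nfil3) in VHL-deficient cells and from -0.57 (Zfp683) to 0.37 (Bhlhe40) in WT cells. Voom called 0 of them as well. The interaction of genotype with subset had 0% of all genes called by limma and 0 of the 9 factors, with 1156 genes and 1 factor, Irf8, at an unadjusted p under 0.05. The interaction of genotype with day also had 0% and 0 of the 9, with 268 genes and 0 factors at an unadjusted p under 0.05. Voom called 0 genes for either.

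Compared per length, Bhlhe40 was the most abundant of the 9 factors in every group but WT spleen. Per kilobase of merged exons in GENCODE M21, it averaged 3046 ± 780 scaled counts in VHL-deficient day 11 tumor and 2294 ± 547 in WT day 11 tumor (SD, n = 3 each). In WT spleen Batf, at 198 ± 94.8, and Bhlhe40, at 160.0 ± 8.35, were highest and overlapped (SD, n = 2 each). Ahr was the least abundant in all 10 groups, at 1.50 to 3.71 scaled counts per kilobase. Zfp683 stood at 51.9 ± 10.4 in VHL-deficient spleen, above Irf4 (7.30 ± 0.63) and Irf8 (4.88 ± 0.18), whereas in VHL-deficient Trm cells it stood at 9.20 ± 1.07, below Irf4 (138 ± 11.8) and Irf8 (130 ± 56.6) (SD, n = 2 each). When the 10 groups were ordered by level for each factor, most neighbours in the order overlapped. Nfil3 had 4 of 9 neighbouring pairs apart, Runx3, Prdm1, Bhlhe40 and Irf8 had 2, Zfp683, Irf4 and Batf had 1, and Ahr had 0. Such pairs were not counted for other genes.

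The genes whose log2 levels followed each factor most closely over the 22 libraries are given as a description, since all share the libraries and the wide difference between tumor and spleen. For Irf8 they were the serpins Serpinb9 (Pearson r = 0.98) and Serpinb6b (0.98) and the G protein regulator Rgs16 (0.97), and for Irf4 they were Rgs16 (0.98), the nuclear receptor Nr4a2 (0.98) and the phosphatase Dusp4 (0.97). Bhlhe40 was closest to Styk1 (0.97), Tnfrsf9, which encodes the costimulatory receptor 4-1BB (0.97), and Il1r2 (0.97). Nfil3 was closest to the glycolytic enzyme gene Tpi1 (0.91), Prelid2 (0.91) and the lactate transporter Slc16a3 (0.90), and Prdm1 to Impa2 (0.92), the glycolytic enzyme gene Gpi1 (0.91) and Bsg, the chaperone of lactate transporters (0.91). Runx3 was closest to Rab11fip4 (0.89), the receptor Slamf7 (0.89) and Dnah8 (0.88), Batf to Gmfg (0.92), the class I gene H2-K1 (0.91) and Hopx (0.91), Zfp683 to Pnisr (0.84), B4galt7 (0.83) and Nrros (0.80), and Ahr to Serinc3 (0.82), Fam107b (0.79) and Vps4b (0.79). Among the 9 factors the closest pair was Irf4 with Irf8 (0.95), and the pair farthest apart was Zfp683 with Irf4 (-0.76).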

How the data were processed

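For 46297 rows and 22 libraries the authors deposited a signal. From the values, each is the reads of a gene divided by the size factor of its library, plus 1, since every value minus 1 is a whole multiple of 1 step per library (100% of values, tolerance 0.01 reads). The table's header states 55 samples. STAR, featureCounts, DESeq and mm10 are named in the submitters' processing notes, with no versions; annotation and strand setting were not given in the sources used. Per the labels' protocols, cells were sorted into lysis buffer and RNA was purified on beads. In the labels of the sorted Trm and nonTrm cells the letter V was taken to mean VHL-deficient, and reads of Vhl matched the genotype in all 22 libraries.

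The offset was removed. Genes with at least 10 scaled counts in at least 2 libraries were tested with limma 3.58.1 in R 4.3.3, eBayes(trend=TRUE) on log2(scaled count + 1), with 10 group means in 1 model (12 residual degrees of freedom), two-sided, with Benjamini-Hochberg adjustment. The test was checked on simulated data. Alternatives were other scalings, filters, pseudocounts and variance models, a replicate block, and leaving out each library. Voom, scaling to reads outside ribosomal RNA and mitochondrial genes, a crossed block and the mean over 5 settings were added after seeing the data. The 9 factors and all gene lists were chosen with earlier results of these data known, so they are not independent evidence. All 9 factors are named; of each list the counts are given with up to 4 called genes of smallest adjusted p. Genes like a factor were the 3 with the highest Pearson r among tested genes above the median level, leaving out Xist, genes on Y, receptor segments and gene models with no name. Lengths and positions are from GENCODE M21 on mm10. Python 3.11.15, numpy 2.4.6, pandas 2.3.3 and matplotlib 3.10.9 were used.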

Additional observations from a re-analysis of the deposited data

Results flagged for a closer look

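The genotype difference of Nfil3 itself differed between tissues: the interaction of genotype and tissue had a log2FC of -2.93 (limma adjusted p = 0.0159). Nfil3 had 709 and 756 scaled counts in VHL-deficient unsplit day 7 tumor against 498 and 491.5 in WT tumor, and 554 and 664.5 in VHL-deficient spleen against 72.4 and 38.8 in WT spleen. The spleen libraries of the genotypes were further apart than the tumor libraries. The sample titles of all 8 libraries end in the same number, read here as 1 plate column.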

How the results depend on the processing

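Runx3 in Trm cells, not called, had an adjusted p of 0.0298 to 0.0492 under 8 other settings. Of 26 calls of single factors (mean over settings included), 15 held in all other settings and 11 were lost in some. Of 99 factor and comparison pairs never called in any setting, 53 changed sign in at least 1. The number of factors called in day 11 tumor was 3, against 1 with no filter on low values and 1 with eBayes without trend (1 to 3 without single libraries). In Trm cells it was 2, against 1 with no filter (0 to 3), and in nonTrm cells 1, against 0 with no filter, 0 with eBayes without trend, 0 with scaling to reads outside ribosomal RNA and mitochondrial genes and 0 when only the groups compared were fitted (0 to 3). For VHL-deficient tumor against spleen it was 6, against 3 with no filter and 3 with eBayes without trend (3 to 6), and for the interaction of genotype and tissue 1, against 0 with eBayes without trend (0 to 1). Trm against nonTrm gave 0 to 1 in each genotype without single libraries; the log2FC of Batf in VHL-deficient cells ran from -1.44 to 0.26 and reversed without nonTrm replicate 2. The causes were not tested.

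A fit with the replicate number as a replicate block lost the calls of Runx3 in day 11 tumor (adjusted p = 0.0529) and spleen (0.0627), called Prdm1 in spleen (0.0376) and changed no other call of the 9 factors. Same-numbered day 11 libraries correlated at 0.04, 0.10 and 0.10 in their deviations, and those of unsplit day 7 tumor at 0.03, Trm cells at 0.24, nonTrm cells at 0.27 and spleen at 0.12. The labels do not say what a number stands for, so the numbers were not taken as pairs. Trm and nonTrm deviations correlated at -0.18 in VHL-deficient and -0.15 in WT cells; a crossed replicate block called 0 factors in both.

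Over all genes, fitting only the groups compared called 3023 genes in place of 984 in day 11 tumor, 894 in place of 1446 in Trm cells, 11 in place of 332 in nonTrm cells, 3376 in place of 2213 in VHL-deficient tumor against spleen, 0 in place of 43 in WT Trm against nonTrm cells, and 156 and 3 in place of 0 between days in VHL-deficient and WT cells. No filter called 604 in day 11 tumor, 896 in Trm cells, 10 in place of 1 in VHL-deficient Trm against nonTrm cells, 16 in place of 10 for the tissue interaction and 4 and 13 between days. Voom called 270 in place of 455 in spleen, 0 in VHL-deficient and 161 in WT Trm against nonTrm cells, and 2 for the tissue interaction. In WT Trm against nonTrm cells a pseudocount of 5 called 74, eBayes without trend 1, either block 16 and the ribosomal and mitochondrial scaling 26; for the tissue interaction the first 2 called 5 and 1 and the block 4, and eBayes without trend called 2 between days in WT cells. Without single libraries the counts ran from 418 to 1553 in day 11 tumor, 234 to 2363 in Trm cells, 131 to 1996 in nonTrm cells, 94 to 425 in unsplit day 7 tumor, 230 to 643 in spleen, 0 to 2544 in VHL-deficient and 0 to 223 in WT Trm against nonTrm cells, 876 to 2885 in VHL-deficient and 1486 to 3985 in WT tumor against spleen, 0 to 4 between days in WT cells, 0 to 1496 for the subset interaction and 0 to 17 for the tissue interaction. Except between days, the highest of these counts came without replicate 1 or 2 of the VHL-deficient nonTrm cells. Scaling to reads outside ribosomal RNA and mitochondrial genes moved the median of all genes by -0.11 for genotype in nonTrm cells, -0.14 in spleen, 0.20 for the subset interaction and 0.18 for the tissue interaction, and TMM scaling moved the tissue interaction by 0.12. Tests based on edgeR and DESeq2, planned as alternatives, were not run; voom was run on the recovered reads in their place. Ahr and Zfp683 had at most 38 and 80 reads in a library, which limits their precision.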

Other observations

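Among 16 other transcription factors of CD8 T cells, all tested, 5 were higher and 7 lower in VHL-deficient than in WT cells for the mean over the 5 settings, with 27.2% of all genes called. Eomes, a T-box factor of memory and NK cells, fell (log2FC -3.05, SE 0.44, limma adjusted p = 2.56e-05); it is also 1 of the 6 NK cell markers, whose sums were lower in VHL-deficient than in WT tumor except in nonTrm cells, where they overlapped. Ikzf2, the Ikaros family gene for HELIOS, fell (-0.99, SE 0.21, adjusted p = 0.00164), as did Tcf7, which encodes the memory factor TCF1 (-1.23, SE 0.27, adjusted p = 0.00170), and Stat4, which relays interleukin signals (-0.56, SE 0.12, adjusted p = 0.00175). In single settings 1 fell in day 11 tumor, 0 were called in unsplit day 7 tumor and in nonTrm cells, 1 rose and 1 fell in Trm cells and 1 rose in spleen. Against spleen, 3 rose and 4 fell in VHL-deficient unsplit day 7 tumor, and 3 rose and 4 fell in WT tumor. Gata3 fell in both, to 403 scaled counts in VHL-deficient tumor against 1946 in spleen (-2.27, adjusted p = 7.92e-06) and to 356 in WT tumor against 889 in spleen (-1.32, adjusted p = 0.00178). Zeb2, which encodes a repressor that promotes terminal effector differentiation, rose in both (3.73, adjusted p = 0.00315 in VHL-deficient cells and 5.11, adjusted p = 1.31e-04 in WT cells).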
